A study of Mus musculus with 6 samples.

Results

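The genes described here are 10 genes that mark macrophages of the mouse lung, read as a measure of how much macrophage RNA each library held and set beside the few reads of Sirpa, the gene disrupted in the knockout. They were taken by name, as Chil3, Ear2, Mrc1, Marco, C1qa, C1qb, C1qc, Cd68, Mertk and Csf1r, and all 10 are among the 17831 genes of the deposited count table.

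The study asked what the inhibitory receptor SIRPα does in group 2 innate lymphoid cells (ILC2s) of the lung, and its bulk RNAseq compared 3 WT with 3 SIRPα KO libraries. WT mice carry the genotype label CB57BL/6 and SIRPα KO mice the label SIRPalphatm1Ynliu/J, a targeted mutation of the whole mouse line and not of ILC2s alone. Mice of both genotypes, matched for age and sex, had received IL-33 into the airway, and ILC2s sorted from their lungs were kept in culture with the recombinant cytokines rmIL-2 and rmIL-7 before RNA was taken. The sort kept cells negative for a set of lineage markers that includes CD11b, CD11c and Gr-1, which myeloid cells carry, B220 of B cells, and markers of T cells, NK cells and cells with the high affinity IgE receptor. Between 13980491 and 19051504 reads per library fell on genes. The code 37 recurs in WT replicate 1 (37) and WT replicate 2 (37V1), and 44 recurs in SIRPα KO replicate 2 (44) and replicate 3 (44V1). Libraries with a shared code may come from the same mouse. Differences between libraries exceeded sampling noise in each pair, shared codes included, and n counts libraries throughout. Their p-values measure the spread between these libraries, which may be technical in part.

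Sirpa encodes SIRPα, a receptor best known from macrophages and other myeloid cells, where its cytoplasmic motifs recruit the phosphatases SHP-1 and SHP-2 once it binds CD47 on a neighbouring cell and so restrain engulfment. Alveolar macrophages line the air spaces and express scavenger receptors such as MARCO, whereas interstitial macrophages of the lung tissue are known for C1q, MERTK and CSF1R. After IL-33, type 2 cytokines from ILC2s turn lung macrophages towards a state rich in chitinase-like proteins and the mannose receptor.

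Several of these genes have near copies to which reads could be assigned, so the sequences that bear on that are shown first. Chil3 (mm10, chr3:106147554-106167564) lies beside Chil4 (chr3:106201490-106219507), and their coding sequences in the GENCODE M21 annotation were 95.4% identical over 1194 aligned bases. Ear2 (chr14:44102654-44103534) and Ear1 (chr14:43818765-43875517) were 95.7% identical over 465 bases. In the first 60 coding bases of each pair, printed here from mm10, a single base differs and stands in capitals.
Chil3: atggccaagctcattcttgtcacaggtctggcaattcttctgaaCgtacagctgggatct
Chil4: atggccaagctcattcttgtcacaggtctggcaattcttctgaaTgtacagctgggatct
Ear2: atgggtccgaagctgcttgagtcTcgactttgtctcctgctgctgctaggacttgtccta
Ear1: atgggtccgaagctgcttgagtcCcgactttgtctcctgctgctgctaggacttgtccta

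The longest identical run was 136 bases between Chil3 and Chil4 and 96 bases between Ear2 and Ear1. Chil4 had at most 7 reads in any library, where Chil3 had at least 5223. Ear1 had 0, 0 and 71 reads in the WT libraries and 35, 13 and 8 in the SIRPα KO libraries, and the split between Ear1 and Ear2 is uncertain. Sirpa (chr2:129592835-129632228) was less like its relatives, at 71.0% identity with Sirpb1a, 71.6% with Sirpb1b and 71.1% with Sirpb1c, and its longest identical run with any of them was 32 bases. Sirpb1b had 0, 0 and 11 reads in WT and 2, 3 and 4 in SIRPα KO, and Sirpb1c had 0, 2 and 17 reads in WT and 19, 15 and 11 in SIRPα KO. Both relatives were at or near 0 in WT replicates 1 and 2, where Sirpa had most reads.

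A second set of sequences comes from the promoters of the 3 members whose groups did not overlap, Mrc1, C1qb and C1qc. PU.1, the myeloid factor encoded by Spi1, binds elements with the core GAGGAA, which reads TTCCTC on the opposite strand. RefSeq promoters (GRCm38.p6, 250 bases before to 50 after the start) were held for 8 of the members, and 5 of the 8 had this core on either strand (Mrc1, Marco, C1qb, C1qc and Cd68). Among all 32851 promoters of that length, 28.3% had it. The stretches of 60 bases below read along each gene's own strand, the plus strand for Mrc1 (chr2:14229207-14229266) and the minus strand for C1qb (chr4:136886201-136886260) and C1qc (chr4:136893075-136893134), with the core in capitals. A match describes these letters and is not a measured binding site.
Mrc1: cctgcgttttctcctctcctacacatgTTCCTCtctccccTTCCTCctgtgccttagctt
C1qb: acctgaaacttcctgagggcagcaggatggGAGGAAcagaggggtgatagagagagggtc
C1qc: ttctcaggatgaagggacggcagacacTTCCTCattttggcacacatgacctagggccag

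Sirpa, the disrupted gene, was low in every library and lower in SIRPα KO. It had 149, 96 and 73 reads in the WT libraries and 48, 85 and 28 in the SIRPα KO libraries. As CPM, which scales reads to the library's normalized total, these were 8.57, 6.83 and 4.83 in WT and 3.07, 4.46 and 1.74 in SIRPα KO. All SIRPα KO libraries were below all WT libraries, although SIRPα KO replicate 2 at 4.46 CPM stood close to WT replicate 3 at 4.83 CPM. The mean was 6.74 ± 1.87 CPM for WT and 3.09 ± 1.36 for SIRPα KO (SD, n = 3 each), giving a log2 fold change of -1.12 ± 0.42 (SE) and an adjusted p of 0.115 by edgeR's quasi-likelihood test over all genes, which did not pass the threshold of 0.05. The table counts whole genes, so it does not show whether the reads left in SIRPα KO lay inside or outside the deleted part, and they check the labels only in part.

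None of the macrophage genes tested passed the threshold in either direction. Of the 10 members, 7 passed the filter on low counts, and 0 of the 7 had an adjusted p under 0.05, against 11.7% of all 13623 genes tested. In the same fit, 1 member (Mrc1) had an unadjusted p under 0.05, beside 4355 of all genes tested. DESeq2 gave an adjusted p for 5 members only, not for Mrc1, Marco or the C1q genes, and called 0 of those 5. In that fit 4 of the 10 members had an unadjusted p under 0.05, beside 28.3% of all genes. Their log2 fold changes were above 0 for 4 members and below 0 for 3, with a median of 0.066 beside -0.025 over all genes tested. Among the 7 members tested, groups did not overlap for 1, Mrc1, beside 42.8% of all genes tested. They did not overlap either for C1qb and C1qc, which were not tested, and all 3 were higher in SIRPα KO.

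**Figure D1:**
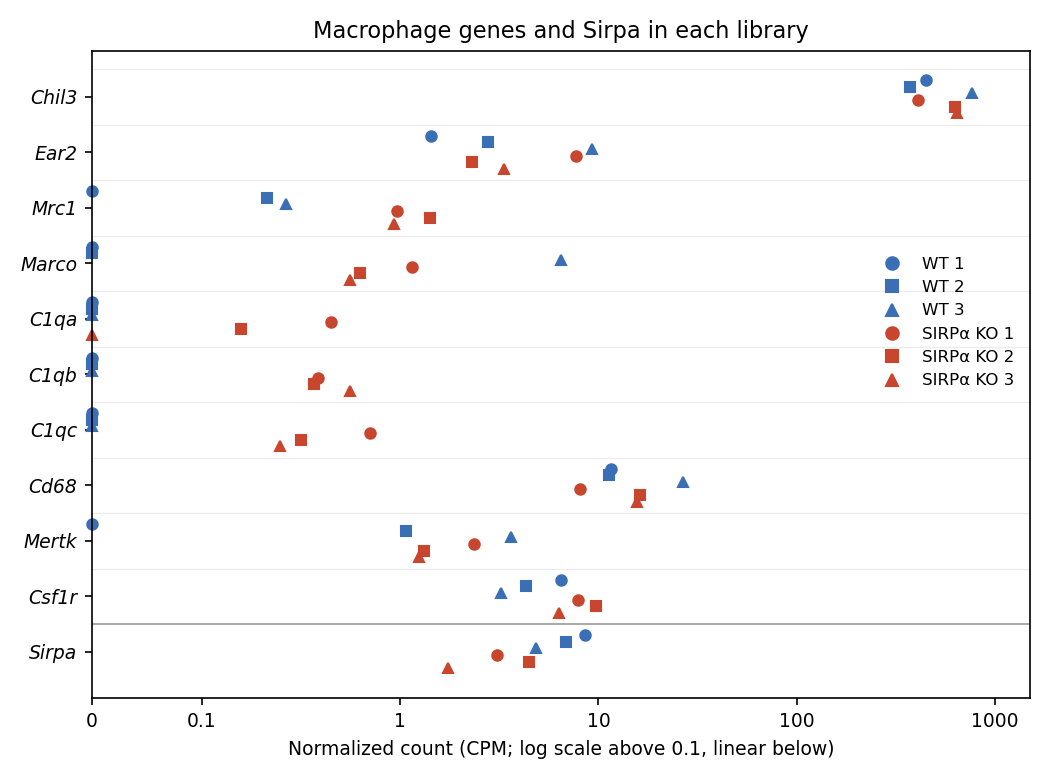
Normalized counts (CPM, log axis above 0.1 and linear below) of the 10 macrophage genes and Sirpa, with 1 point per library, WT in blue and SIRPα KO in red, and the replicate shown by the marker's shape. Chil3 lies between 371 and 765 CPM, the C1q genes are at 0 in all WT libraries, and Sirpa lies between 1.74 and 8.57 CPM with every WT point to the right of the SIRPα KO points.

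By level, Chil3 came first among the members. Chil3 encodes Ym1, a chitinase-like protein of alveolar and alternatively activated macrophages. It had 7840, 5223 and 11550 reads in WT and 6407, 11978 and 10374 in SIRPα KO, or 451, 371 and 765 CPM against 409, 629 and 643 CPM. The groups overlapped widely, with WT replicate 3 the highest library and WT replicate 2 the lowest. The log2 fold change was 0.08 ± 0.28 (edgeR adjusted p = 0.861). Chil3 alone made up between 93.2% and 95.8% of the reads on the 10 members in each library, so any sum over all of them is in effect Chil3.

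Ear2 encodes a secreted ribonuclease of the eosinophil-associated family that lung macrophages also make. It had 25, 39 and 141 reads in WT and 121, 44 and 54 in SIRPα KO. Its high libraries were WT replicate 3 at 9.34 CPM and SIRPα KO replicate 1 at 7.73 CPM, and the other libraries lay between 1.44 and 3.35 CPM. The mean CPM was 4.52 ± 4.23 for WT and 4.46 ± 2.88 for SIRPα KO, and the log2 fold change of -0.02 ± 0.73 carried an adjusted p of 0.990. SIRPα KO replicate 1 also held most of the eosinophil granule transcripts, with 151 reads of Epx (eosinophil peroxidase) and 145 of Prg2 (major basic protein), where no other library had more than 17 reads of either. The 6 eosinophil genes summed to 22.6 CPM in that library, to 7.07 and 7.98 CPM in the other SIRPα KO libraries and to between 4.14 and 4.90 CPM in WT. The part of eosinophil RNA in the Ear2 value of that library was not tested.

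The scavenger receptors were rarer and moved in different ways. Mrc1 (chr2:14229392-14332057), the mannose receptor CD206, had 0, 3 and 4 reads in WT and 15, 27 and 15 in SIRPα KO. All SIRPα KO libraries, at 0.930 to 1.42 CPM, were above all WT libraries, at 0 to 0.265 CPM. Over the group totals, 7 reads in WT and 57 in SIRPα KO, the ratio was 7.46 with a 95% counting interval of 3.40 to 19.4, an interval that covers counting error and not the spread between libraries. The fitted log2 fold change was 2.77 ± 0.91 with an edgeR adjusted p of 0.0851, and Mrc1 passed the filter on low counts only through the SIRPα KO libraries.

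Marco (chr1:120474538-120505024), the scavenger receptor with collagenous structure of alveolar macrophages, was carried by a single WT library. It had 0, 0 and 98 reads in WT and 18, 12 and 9 in SIRPα KO, so that WT replicate 3 at 6.49 CPM stood far above every other library and WT replicates 1 and 2 at 0 stood below all SIRPα KO libraries. The log2 fold change was -1.47 ± 1.64 with an edgeR adjusted p of 0.566. Without WT replicate 3 it turned to 6.69 with an adjusted p of 0.0297, a fit in which both WT libraries share a code and are at 0, and the size of that fitted value depends on the prior count.

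The C1q genes encode the chains of the first complement component, which resident macrophages secrete and which marks debris for uptake. The 3 genes are neighbours on chromosome 4 (C1qb at chr4:136880129-136886187, C1qc at chr4:136889804-136893065 and C1qa at chr4:136895917-136898803). None of them had a read in any WT library. In SIRPα KO, C1qa had 7, 3 and 0 reads, C1qb had 6, 7 and 9, and C1qc had 11, 6 and 4. C1qb and C1qc were present in all 3 SIRPα KO libraries, and C1qa in 2 of the 3. A floor of 3 reads over the WT group is 0.0644 CPM. Against it, the observed level in SIRPα KO was 3.05-fold higher for C1qa, 6.72-fold for C1qb and 6.41-fold for C1qc. These ratios allow for counting error in WT only. They leave out counting error in the few SIRPα KO reads and the spread between libraries, so they are not lower bounds. None of the 3 genes passed the filter, so that no test was made. With the filter left off, edgeR gave adjusted p-values of 0.222, 0.0784 and 0.0888 for C1qa, C1qb and C1qc.

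Cd68 (chr11:69664213-69666153) encodes macrosialin, a protein of macrophage lysosomes. It had 202, 159 and 404 reads in WT and 127, 310 and 253 in SIRPα KO. WT replicate 3 was again the highest library, at 26.7 CPM, the lowest was SIRPα KO replicate 1 at 8.12 CPM, and the groups overlapped. The means were 16.6 ± 8.83 for WT and 13.4 ± 4.55 for SIRPα KO (CPM), with a log2 fold change of -0.31 ± 0.41 (edgeR adjusted p = 0.635).

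Mertk (chr2:128698956-128802894), a receptor tyrosine kinase with which macrophages recognise apoptotic cells, had 0, 15 and 55 reads in WT and 37, 25 and 20 in SIRPα KO. In CPM the WT libraries ran from 0 in replicate 1 to 3.64 in replicate 3 and enclosed all SIRPα KO libraries, at 1.24 to 2.36. The log2 fold change was 0.07 ± 1.15 with an edgeR adjusted p of 0.976.

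Csf1r encodes the receptor for M-CSF and IL-34, on which macrophages depend for survival. It had 113, 61 and 49 reads in WT and 123, 185 and 102 in SIRPα KO. In CPM it was 6.50, 4.34 and 3.24 in WT and 7.86, 9.71 and 6.33 in SIRPα KO, so that only WT replicate 1 reached into the range of SIRPα KO. The mean CPM was 4.69 ± 1.66 in WT against 7.96 ± 1.69 in SIRPα KO, for a log2 fold change of 0.76 ± 0.34 and an edgeR adjusted p of 0.170. Its difference between the groups ran opposite to that of Sirpa. The deposited values of Csf1r were not whole numbers in any of the 6 libraries, while those of Sirpa were whole in all of them, and what part shared reads had in Csf1r was not tested.

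Levels between genes were compared per kilobase of the longest annotated transcript. In WT, CPM per kb was 344 ± 135 for Chil3, 13.5 ± 7.18 for Cd68 and 6.28 ± 5.88 for Ear2. Next came Sirpa at 1.69 ± 0.47, Marco at 1.12 ± 1.95, Csf1r at 0.998 ± 0.352, Mertk at 0.365 ± 0.435 and Mrc1 at 0.0297 ± 0.0261, with the C1q genes at 0. Below Chil3, the ranges of mean ± SD overlapped between neighbours in that order for Cd68 and Ear2, Ear2 and Sirpa, Sirpa and Marco, Marco and Csf1r, Csf1r and Mertk, and Mertk and Mrc1. In SIRPα KO, Csf1r at 1.69 ± 0.36 CPM per kb was above Sirpa at 0.776 ± 0.342 with no overlap of mean ± SD, whereas in WT the spreads of the pair overlapped. The highest C1q gene there, C1qb at 0.401 ± 0.0973 CPM per kb, had a lower mean than Sirpa with overlapping spreads.

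Sirpa and the summed macrophage genes placed the libraries in different orders. The 10 members summed to 470, 391 and 814 CPM in WT and to 439, 661 and 672 CPM in SIRPα KO, with group means of 559 ± 225 and 591 ± 131 and a ratio of SIRPα KO to WT of 1.06. Leaving Chil3 out, the other 9 summed to 19.6, 19.7 and 49.7 CPM in WT and to 29.7, 32.5 and 28.9 CPM in SIRPα KO, with means of 29.7 ± 17.4 and 30.4 ± 1.87. By either sum WT replicate 3 was the highest library, and it was the WT library with the least Sirpa. WT replicates 1 and 2 had the lowest sums without Chil3 and the most Sirpa. Of the 10 members, 6 peaked within WT in replicate 3, Csf1r alone peaked in replicate 1 as Sirpa did, and the 3 C1q genes were at 0. The share of all genes that peaked in replicate 3 was not counted, so the 6 are not shown to be unusual. WT replicates 1 and 2 share a code. The count of members at 0 was 6, 4 and 3 in WT and 0, 0 and 1 in SIRPα KO. Since Sirpa is disrupted in SIRPα KO, its order between the groups does not bear on the source of its reads. In bulk libraries fewer macrophages and less RNA per macrophage cannot be told apart.

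**Figure D2:**
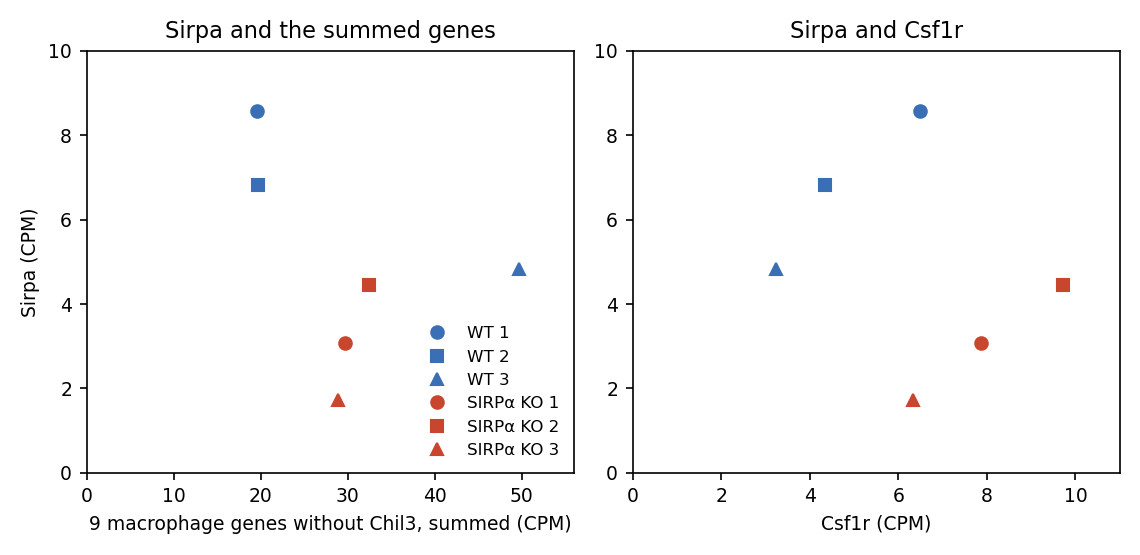
Sirpa (CPM, y axis) in each of the 6 libraries against the summed CPM of the 9 macrophage genes other than Chil3 (left) and against Csf1r CPM (right), WT in blue and SIRPα KO in red. On the left WT replicate 3 lies furthest right at 49.7 CPM with Sirpa at 4.83, and the WT libraries with most Sirpa lie furthest left at 19.6 and 19.7 CPM. On the right the WT points and the SIRPα KO points each rise from left to right, with the SIRPα KO points lower.

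Per 100 reads on the 9 members other than Chil3, Sirpa had 43.8 reads in WT replicate 1 (95% exact Clopper-Pearson interval 35.9 to 53.3), 34.7 in WT replicate 2 (27.2 to 43.9) and 9.72 in WT replicate 3 (7.54 to 12.4). The SIRPα KO libraries had 10.3 (7.50 to 13.9), 13.7 (10.8 to 17.2) and 6.01 (3.95 to 8.80). WT replicate 3 thus lay among the SIRPα KO libraries on this measure, and its interval did not meet those of the other WT libraries. The group means were 29.4 ± 17.6 in WT and 10.0 ± 3.87 in SIRPα KO, and the order of the groups rested on WT replicates 1 and 2, which share a code. Per 100 reads on all 10 members the values were 1.82, 1.75 and 0.593 in WT and 0.698, 0.675 and 0.258 in SIRPα KO, with WT replicate 3 again among the SIRPα KO libraries.

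Cd68, a large part of that sum, was also set against Sirpa alone. Sirpa had 73.8 (59.3 to 91.6), 60.4 (46.4 to 78.3) and 18.1 (13.9 to 23.2) reads per 100 Cd68 reads in WT. The SIRPα KO libraries had 37.8 (26.5 to 53.1), 27.4 (21.3 to 35.0) and 11.1 (7.21 to 16.4). WT replicate 3 again lay among the SIRPα KO libraries, and the interval of WT replicate 2 met that of SIRPα KO replicate 1. Against Csf1r, chosen for this display after its values were seen, the WT libraries were level. Sirpa had 132 reads per 100 Csf1r reads in WT replicate 1 (103 to 170), 157 in replicate 2 (113 to 221) and 149 in replicate 3 (102 to 219), a mean of 146 ± 13.0. In SIRPα KO there were 39.0 (27.4 to 54.9), 45.9 (35.1 to 59.7) and 27.5 (17.4 to 42.1), a mean of 37.5 ± 9.34. Csf1r and Sirpa ranked the libraries alike within WT and within SIRPα KO. The mean in WT was 3.90 times that in SIRPα KO, and no interval of a WT library met that of a SIRPα KO library. That ratio takes in the disruption of Sirpa and the higher Csf1r in SIRPα KO, so it does not bear on the source of the reads. The intervals cover counting error and not the spread between libraries. Intervals of the groups did meet for Cd68 and the sums shown, and the other members were not set out singly in this way.

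**Figure D3:**
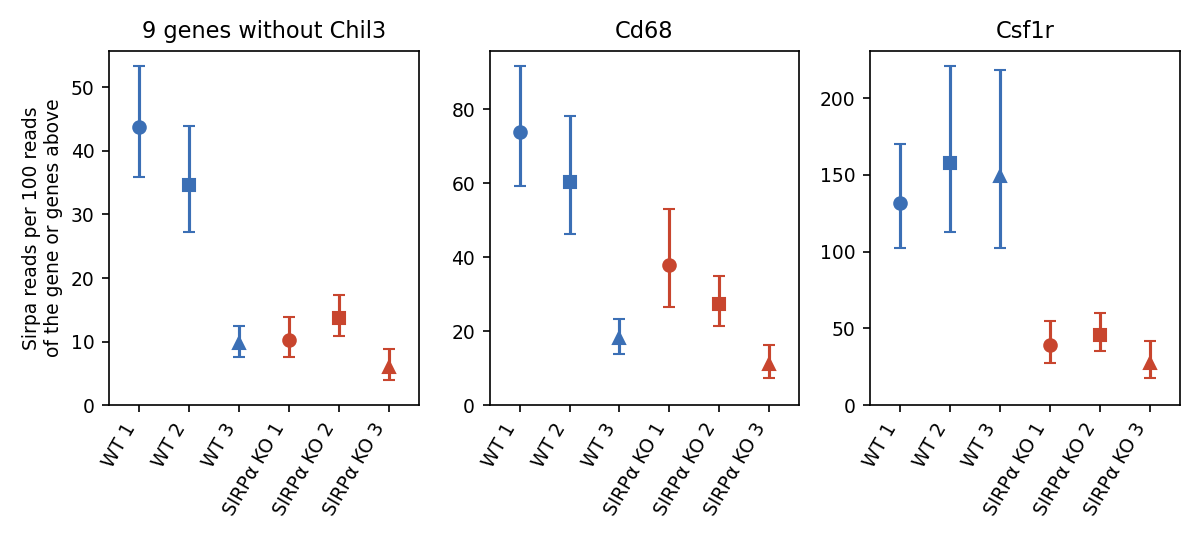
Sirpa reads per 100 reads of the 9 macrophage genes other than Chil3 (left), of Cd68 (middle) and of Csf1r (right) in each library, with 95% exact intervals for counting error, WT in blue and SIRPα KO in red. Each panel has its own y axis from 0. WT replicate 3 falls among the SIRPα KO libraries at 9.72 on the left and at 18.1 in the middle, and stands with the other WT libraries at 149 on the right.

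How steadily a gene kept its ratio to Sirpa was measured as the SD, over the libraries, of the log2 ratio of its CPM to that of Sirpa, with a prior of 0.5 read. A gene that rose and fell with Sirpa would have an SD near 0. Over the 6 libraries the SD also takes in the disruption of Sirpa itself in SIRPα KO, so it does not bear on the source of the reads. It was 1.03 for Cd68, 1.05 for Chil3, 1.11 for Csf1r and 1.56 for Ear2. The SD was 2.09 for C1qa, 2.73 for C1qc, 2.76 for Mrc1, 2.83 for C1qb, 3.04 for Mertk and 3.55 for Marco, members in which libraries at 0 widen the spread. All 10 were above the median of 0.924 over 2391 genes whose average log2 CPM lay within 1 of that of Sirpa (quartiles 0.759 and 1.20). Of the members only Ear2 and Csf1r lay in that window of level, so for the other 8 the median is no match in abundance. These SDs describe 6 libraries that share codes and have no p.

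Within the 3 WT libraries alone, Csf1r had an SD of 0.129, and 2.01% of the genes of like level had a smaller value, and the median of those genes was 0.737. Chil3 had 0.901, Cd68 1.09, Ear2 1.77, Mrc1 2.24, Mertk 4.03 and Marco 4.82, all above that median. The C1q genes had 0.517, which is the spread of Sirpa and library size alone, since they have no reads in WT. Csf1r had the smallest SD of all members, so its rank is that of a member picked as the lowest. That SD rests on 3 libraries, of which WT replicates 1 and 2 share a code. The rank therefore does not show that Csf1r rises and falls with Sirpa. The genes with the smallest SD over all 6 libraries were Prr12 (0.179), a proline-rich nuclear protein, Vmac (0.224), a coiled-coil protein, Fhl3 (0.250), a LIM domain protein, Ccdc112 (0.281) and the predicted gene Gm12335 (0.294). They are the extremes of 13623 genes tested, by an SD that takes in the disruption of Sirpa. None is in the lists of myeloid genes, which are short, so that absence does not bear on the source of the reads.

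**Figure D4:**
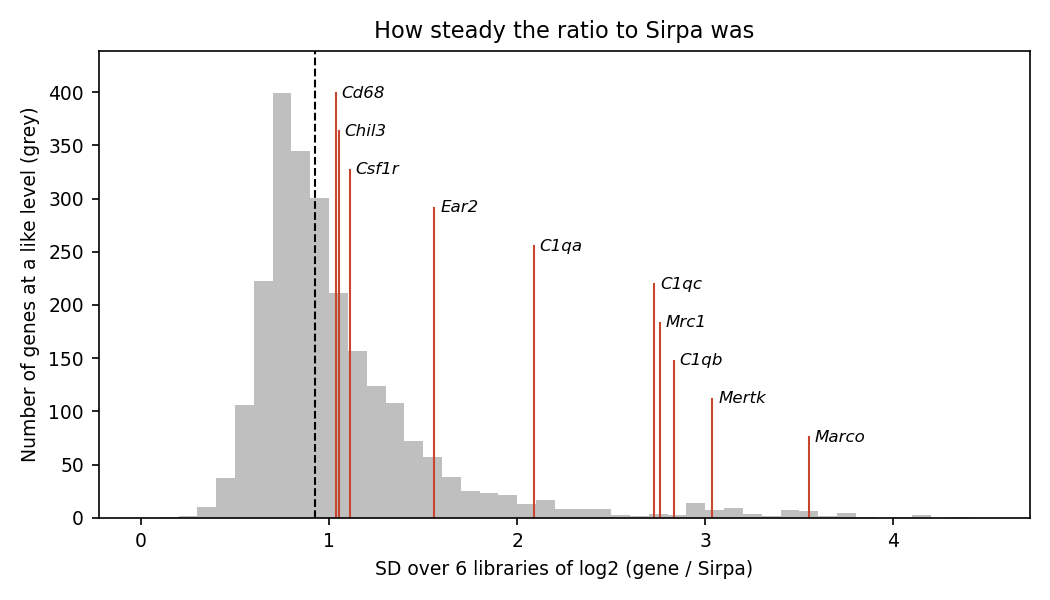
Number of genes (y axis) by the SD over the 6 libraries of their log2 ratio to Sirpa (x axis), for 2391 genes of like level in grey, with their median of 0.924 as a dashed line and the 10 macrophage genes as red lines whose height serves only to place the names. All 10 lie to the right of the dashed line, from Cd68 at 1.03 to Marco at 3.55.

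Other genes of the macrophage and myeloid programmes were taken as lists. Of the 11 other alveolar macrophage genes listed, 10 were in the table and 8 were tested. By edgeR 0 rose and 0 fell, beside 11.7% of all genes tested that passed in either direction. Their sum ran from 268 to 348 CPM in WT and from 272 to 286 CPM in SIRPα KO, most of it from Pparg and Lpl. Pparg, a nuclear receptor that alveolar macrophages need and that ILC2s express too, had a log2 fold change of -0.13 ± 0.11 (edgeR adjusted p = 0.456). Lpl, lipoprotein lipase, had 356, 346 and 1044 reads in WT and 694, 854 and 629 in SIRPα KO. In this list 6 of the 10 genes peaked within WT in replicate 3, as 6 of the 10 members did. Among them were Plet1 with 78, 47 and 331 reads, Fabp4 with 7, 4 and 55, and Krt79 with 0, 0 and 38. Of the others, Abcg1 peaked in replicate 1, and Car4 and Pparg in replicate 2. Abcg1 and Car4 (7, 21 and 4 reads) were lowest in replicate 3. Siglecf had 0 reads in every WT library and 0, 28 and 11 in SIRPα KO. The share of all genes that peaked in replicate 3 was not counted.

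Of 13 genes of interstitial macrophages and monocytes, 7 were in the table and 6 tested. Among these 0 were called higher and 1 lower, beside 11.7% of all genes tested in either direction. The gene that fell was Ly6c2, a marker of inflammatory monocytes, with 24, 17 and 12 reads in WT and 0 in every SIRPα KO library (edgeR adjusted p = 0.0197). It passed the filter on low counts only through the WT libraries. The most abundant were Ccr2, a chemokine receptor that ILC2s carry as well, and Apoe, with 116, 64 and 109 reads in WT and 60, 54 and 63 in SIRPα KO.

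Of 18 further genes shared by myeloid cells in the table, 15 were tested, 1 rose and 1 fell, a share near the 11.7% of all genes tested. Itgam, which encodes the CD11b chain used in the sort gate, rose from 8, 56 and 20 reads in WT to 146, 207 and 214 in SIRPα KO, with a log2 fold change of 2.55 ± 0.66 (edgeR adjusted p = 0.0454). Lgals3, galectin-3, fell from 520 ± 91.2 to 232 ± 6.29 CPM, a log2 fold change of -1.16 ± 0.14 (edgeR adjusted p = 0.00806), and was the most abundant of them. Lyz2, lysozyme and the second most abundant, had 367, 321 and 1240 reads in WT and 749, 1380 and 1040 in SIRPα KO. Fcgr1, the high affinity IgG receptor CD64, had 0 reads in every WT library and 8, 12 and 6 in SIRPα KO, the same division as in C1qb and C1qc. The 18 genes summed to 636, 580 and 891 CPM in WT and to 428, 451 and 475 CPM in SIRPα KO, most of it Lgals3. Without Lgals3, a sum taken after the data were seen, the other 17 came to 135, 141 and 273 CPM in WT and 199, 223 and 236 CPM in SIRPα KO, so that the means of 183 ± 78.0 and 219 ± 18.9 lay in the opposite order. Of the 18 genes, 10 peaked within WT in replicate 3, and how many of all genes did so was not counted.

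Markers of other cells that the cultures could hold also differed between the libraries. The 8 B cell genes in the table, led by Ighm and Igkc, summed to 494, 495 and 226 CPM in WT and to 23.5, 88.9 and 86.2 CPM in SIRPα KO. That sum, like Sirpa, was higher in WT replicates 1 and 2 than in replicate 3 and lower in all SIRPα KO libraries. Sirpa is itself disrupted in SIRPα KO, and the part of B cell RNA in the Sirpa reads was not tested. By edgeR, where 11.7% of all genes passed in either direction, 3 of the 4 T cell genes tested fell (Cd3g, Trbc1 and Trbc2). Other T cell genes were low in WT, with Cd3e at 1.36 ± 1.01 CPM and Trac, which was not tested, at 0.865 ± 0.580 CPM. Also lower were 3 of 5 NK cell genes, 1 of 5 dendritic cell genes (Batf3) and 1 of 5 epithelial genes (Epcam). Pecam1 rose, the only gene in the table of 7 listed for endothelium and stroma. Klrb1c and Eomes, 2 of the 3 NK cell genes, had passed the filter only through the WT libraries. None of the 4 tested mast cell and basophil genes or the 2 tested eosinophil genes passed the threshold. Neutrophil genes were near 0, with S100a8 and Csf3r alone in the table and a sum of at most 0.930 CPM.

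Summed over the 13 genes of ILC2s, WT libraries held between 15259 and 16384 CPM, and SIRPα KO libraries between 21089 and 21619. These sums were far above that of any other list. Il5 made up most of them, with group means of 9192 (WT) and 12951 (SIRPα KO) CPM. Single genes of the list ranged widely, and Thy1, with a WT mean of 16.1 CPM, lay below Chil3, with 529. Led by Il5 and Il2ra, the 13 genes fit the label of sorted ILC2s in every library. All 13 were tested, and 3 rose (Il5, Il2ra and Ptprc) and 2 fell (Id2 and Thy1) in SIRPα KO. Of all genes tested, 11.7% passed in either direction.

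**Figure D5:**
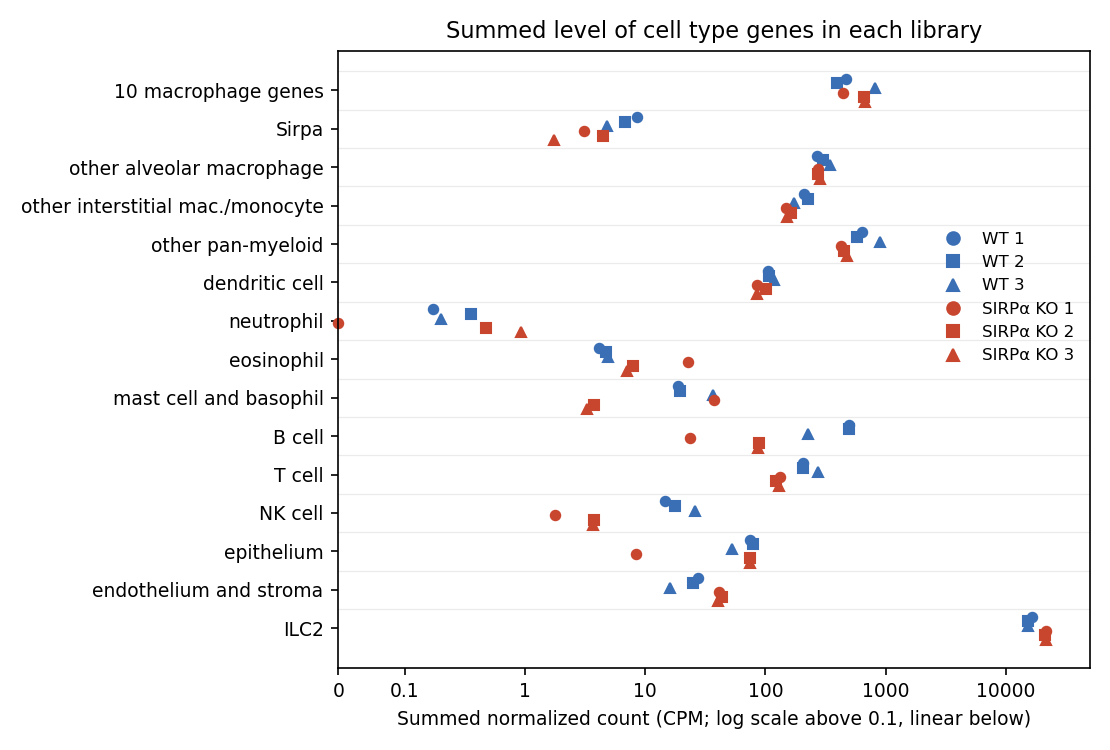
Summed normalized counts (CPM, log axis above 0.1 and linear below) of each list of cell type genes in each library, WT in blue and SIRPα KO in red. ILC2 genes lie at or above 15259 CPM in every library, the 10 macrophage genes between 391 and 814 CPM with overlapping groups, and the B cell genes between 226 and 495 CPM in WT and between 23.5 and 88.9 CPM in SIRPα KO.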

How the data were processed

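Bulk RNAseq of cultured lung ILC2s was deposited as a table of estimated counts per gene. Per the labels, cDNA was made from 10 pg of RNA, and the submitters' processing notes name Partek 10.0, STAR 2.7.8, DESeq2 and mm10; the study's methods give other versions and the GENCODE M21 annotation. The counting tool and the use of strand are not given in the sources used here. Without strand, overlapping and antisense genes cannot be told apart. The authors' table has 17831 genes, none with a total under 10. Of its gene columns, 132 were listed by name and the other 17699, of the same unit, entered the fit unlisted. The members and lists were chosen with earlier results of these data known.

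Counts were rounded, filtered with filterByExpr (10 reads in a library of median size, 15 in total) and normalized by TMM. The comparison used edgeR's quasi-likelihood test on genotype, with Benjamini-Hochberg adjustment over 13623 genes and a threshold of 0.05. Sums and ratios to Sirpa have no test. R 4.3.3, edgeR 4.0.16, limma 3.58.1, DESeq2 1.42.0 and matplotlib 3.10.9 were used. The genes named were all members, Sirpa, some near relatives, the 2 most abundant genes of some lists and the 5 with the steadiest ratio to Sirpa. Other genes were chosen after their values were seen. Transcript length was that of the longest annotated transcript. Alternatives were DESeq2, other scaling factors, no filter, a replicate block, libraries with a shared code summed, an offset for length and GC content of transcripts, and leaving out each library. Exact intervals are at 95% and cover counting error only. Floors of 3 reads allow for counting error in the WT group only. The counts of B cell genes that passed the threshold are not reported here.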

Additional observations from a re-analysis of the deposited data

How the results depend on the processing

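No alternative called a member except the fit without WT replicate 3, which called 1 (Marco), so the count ran from 0 to 1 over the fits that left out a library. DESeq2 gave an adjusted p for 5 of the 10 members. Sirpa kept its direction in all 13 alternatives, with log2 fold changes from -1.48 to -0.83 and edgeR or DESeq2 adjusted p-values from 0.0673 to 0.290. Mrc1 (2.17 to 3.38) and Csf1r (0.56 to 1.08) kept theirs too. Other members changed sign, never past the threshold but for Marco. Ear2 was 0.0081 with DESeq2, 0.013 without the filter, 0.15 with the replicate block, 0.53 after the length and GC correction, and -0.67 to 1.09 with a library left out. Chil3 was -0.038 with upper quartile factors, -0.17 with libraries of a shared code summed, and -0.12 to 0.46 with a library left out. Mertk was -0.087, -0.16 and, after the length and GC correction, -0.37 under the corresponding settings, and -0.52 to 1.65 with a library left out. Marco was 1.75 with the replicate block and -2.06 to 6.69 with a library left out. Cd68 was 0.17 after the length and GC correction and -0.52 to 0.23 with a library left out. The causes were not tested. Upper quartile factors moved the median of all genes to -0.13.

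Sirpa reads per 100 member reads, 1.39 in WT and 0.544 in SIRPα KO, became 33.2 and 11.8 without Chil3 and Ear2, since Chil3 holds most of the reads, and 316 in SIRPα KO over the C1q genes only, with no value in WT, where these have 0 reads.

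Over all genes, 1600 passed the threshold, against 3170 with DESeq2, 1151 without the filter, 1118 with the replicate block, 10 with libraries of a shared code summed, 1111, 2309 and 2606 without WT replicates 1, 2 and 3, and 16, 17 and 17 without SIRPα KO replicates 1, 2 and 3. Same-numbered libraries had correlations of deviations of -0.065, 0.069 and 0.011, and different-numbered libraries had values from -0.104 to 0.0908. The deviations are from means of 3 libraries that share codes, so they cannot exclude that the numbers pair libraries. Under the replicate block Sirpa was -1.18 with an edgeR adjusted p of 0.102. Members with few reads are limited by depth, and a member at 0 is not shown to be absent.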
